A study of Gallus gallus with 4 samples.

Results

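The cell-division genes described here are a fixed group of 33 symbols from the replication and mitosis programmes, of which 31 were found among the 16878 genes of the deposited tables. They were chosen by name and were counted as UMIs, unique molecular identifiers that collapse PCR copies of a transcript. Of the 33, 30 carried the same symbol in the files, and CCNB2 was matched through a RefSeq synonym to the entry that the files call CCNB1. MKI67 and KIF20A were not matched and are not analysed here. The 10 S-phase genes were MCM2, MCM3, MCM4, MCM5, MCM6, PCNA, UHRF1, SLBP, RRM1 and RRM2. The other 21 were the mitosis genes.

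The tissue came from the dorsal midline of White Leghorn chicken embryos, and each of the 4 groups was 1 droplet library. Plucked feathers were taken at 12 days (H&H stage 38), 13 days (stage 39) and 14 days (stage 40), and a strip of epidermis that still held its feathers was taken at 12 days (stage 38). The 12-day tissue was dissociated with Pronase into whole cells, whereas the older feathers were homogenised into nuclei, per the labels' protocols. The labels do not say how many embryos went into a library, and with 1 library in each group no difference below has a replicate or a test. Intervals are 95% intervals for counting error only.

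Cells copy their DNA in S phase and divide in mitosis, and the genes for each step are transcribed mostly in the cells that are about to use them. In S phase the MCM helicase opens the DNA, PCNA clamps the polymerase, RRM1 and RRM2 make deoxynucleotides, SLBP handles histone mRNA and UHRF1 helps to copy DNA methylation. In mitosis TOP2A untangles the chromosomes, the spindle is built by proteins such as ASPM, TPX2 and the kinesins, kinetochores carry CENPE, CENPF and BUB1, and CDC20 with UBE2C drives the destruction of cyclins. In a growing feather the epithelium proliferates near the base and keratinises as it moves outward, SHH marks the signalling epithelium of the barb ridges, and feather keratins such as F-KER mark cells that are hardening.

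Each library held between 8822 and 25075 barcodes and between 56504070 and 72385294 UMIs as deposited. After filtering, between 5411 and 19457 barcodes were kept per library, and each pair of libraries shared between 12 and 110 barcode sequences. Globin genes took 0.505% and 1.43% of UMIs in the plucked and in-skin libraries at day 12, and 45.3% and 43.7% at days 13 and 14. The W-linked gene HINTW had 176270 UMIs in plucked feathers at day 12 and 1 in the in-skin library, so the plucked library included female embryos and the in-skin library held none that could be detected. In the nuclei HINTW had 59379 UMIs at day 13 and 40458 at day 14. Of the 29 members that RefSeq lists under the files' symbol, none lies on chromosome Z or W, which does not set sex aside. A difference between the plucked and in-skin libraries at day 12 also holds this difference in sex, which cannot be told apart from plucking. A difference between day 12 and the later days also holds the change from cells to nuclei and from Cell Ranger 3.1.0 to 7.0.0, and these cannot be told apart.

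Epithelial barcodes were those with at least 3 UMIs of GATA3 and KRT5 together and at most 5 of COL1A1 and COL1A2. Fibroblast barcodes had at least 5 collagen UMIs and at most 2 of GATA3 and KRT5. The epithelial gate held 3791 barcodes in plucked feathers and 1659 in the in-skin library at day 12, then 2747 at day 13 and 3000 at day 14. The fibroblast gate held 853, 2298, 452 and 367. Barcodes in neither gate made up 25.2%, 26.9%, 83.6% and 82.7% of those kept, in the same order, so the gates are not the whole tissue. Because median depth per barcode differed between gates and libraries, barcodes were thinned to 1000 UMIs before the shares with a UMI were compared. At that depth 46.2% of plucked and 37.7% of in-skin day 12 barcodes in neither gate had a mitosis UMI. Summed levels are given as CPM, UMIs of a gene per 1000000 UMIs outside globin and mitochondrial genes, and are not scaled by transcript length.

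At day 12 the epithelial barcodes of the in-skin library held more division transcripts than those of plucked feathers. The in-skin sample was a strip of epidermis with its feathers, so its gates can hold cells from outside feathers. Such a difference in cell make-up cannot be told apart from plucking. The mitosis genes summed to 2926 CPM in in-skin epithelial barcodes and 1957 CPM in plucked ones, a fold of 0.67 for plucked over in-skin. The S-phase genes summed to 1379 CPM and 723 CPM, a fold of 0.52. At equal depth, 49.5% of in-skin and 38.4% of plucked epithelial barcodes had at least 1 mitosis UMI, a difference of -11.1 percentage points for plucked minus in-skin (-15.1 to -7.06). For the S-phase genes the shares were 50.7% and 32.1%, a difference of -18.7 points (-22.6 to -14.7), which was -4.18 points without thinning (83.5% and 87.6%).

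The same direction held among strongly positive barcodes. Of in-skin epithelial barcodes, 28.6% had 3 or more mitosis UMIs at equal depth, compared with 16.8% of plucked ones, a difference of -11.8 points (-15.3 to -8.43). Without thinning the sign for the mitosis genes turned, with 88.7% of plucked and 84.5% of in-skin barcodes positive at median depths of 10296 and 12071 UMIs. With the mitochondrial limit lowered to 5%, the thinned difference was larger, at -18.6 points.

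Fibroblast barcodes differed from this pattern. At day 12, 36.7% of plucked and 19.2% of in-skin fibroblast barcodes had a mitosis UMI, a difference of 17.5 points (12.5 to 22.4). At 3 or more mitosis UMIs the shares were 7.62% and 6.43%, and the difference of 1.18 points had an interval from -1.61 to 4.17. The difference therefore lay in barcodes with 1 or 2 mitosis UMIs, which made up 29.0% of plucked and 12.8% of in-skin fibroblast barcodes. At 2 or more mitosis UMIs it was 5.78 points. S-phase genes were detected in 31.4% and 25.1%, a difference of 6.35 points (1.39 to 11.4). Of plucked fibroblast barcodes with 1 or 2 mitosis UMIs, 29.1% had an S-phase UMI, near the 27.8% of those with 0. The in-skin shares were 35.9% and 21.1%. With 3 or more mitosis UMIs they were 70.3% in plucked and 54.1% in in-skin fibroblasts. Whether plucked fibroblasts with 1 or 2 mitosis UMIs were dividing was not tested.

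Free RNA can give UMIs in barcodes that do not express a gene. Barcodes with over 50% globin UMIs were set beside the gates. They can hold division transcripts of their own, so their shares are not a measure of free RNA alone. In the in-skin library, 24.7% of 77 such barcodes had a mitosis UMI after thinning (15.6 to 35.8), and 1.30% had 3 or more. The median depth of all 154 such barcodes, including those too shallow to thin, was 991 UMIs. That of the gates was 12071 UMIs for epithelium and 5927 for fibroblasts. The fibroblast share of 19.2% lay below 24.7%, but depths before thinning were unlike, so these shares cannot be compared directly. Only 4 globin-majority barcodes of plucked feathers at day 12 reached 1000 UMIs, so no such share is given there. The part of free RNA in the day 12 differences was not tested.

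**Figure D1:**
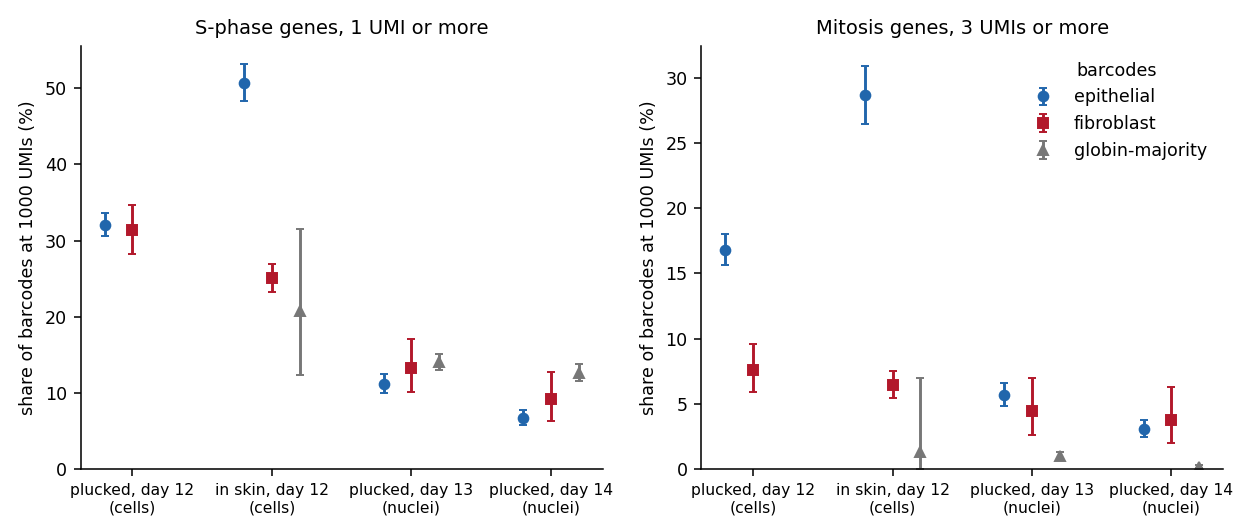
Share of barcodes at 1000 UMIs with at least 1 S-phase UMI (left) and with 3 or more mitosis UMIs (right) in each library, with 95% Clopper-Pearson intervals; circles are epithelial, squares fibroblast and triangles globin-majority barcodes, and groups under 50 barcodes are not drawn. In-skin epithelium at day 12 stands highest in both panels, at 50.7% and 28.6%. The nuclei lie below the epithelium and fibroblasts of day 12.

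Within each day 12 library more epithelial than fibroblast barcodes had 3 or more mitosis UMIs. Epithelial minus fibroblast, the share with 3 or more mitosis UMIs differed by 22.2 points in the in-skin library (18.9 to 25.4) and by 9.18 points in plucked feathers (5.99 to 12.1). At 1 or more UMIs the in-skin differences were 30.3 points for mitosis genes (26.2 to 34.3) and 25.6 points for S-phase genes (21.4 to 29.9), and the plucked ones 1.77 points (-3.15 to 6.61) and 0.63 points (-4.12 to 5.28). Of 30 members, 25 were higher by 2-fold in in-skin epithelium, where 11.6% of all genes were, and 2 in plucked epithelium, where 9.9% were. None was lower by 2-fold in either, where 14.9% and 17.9% of all genes were. RRM2, the regulated subunit of ribonucleotide reductase, led both, with 289 against 45.0 CPM in the in-skin library (log2 ratio 2.44, 2.31 to 2.57) and 135 against 59.8 CPM in plucked feathers (1.06, 0.87 to 1.26). MCM6 was lowest in both, at 0.53 and -0.58. In plucked feathers CDK1 at 1.03 and BUB1 at 0.80 were next to the top, and MCM3 at -0.34 and KPNA2 at -0.12 next to the bottom. In the in-skin library TOP2A at 1.81 and SLBP at 1.68 were next to the top, and KIF23 at 0.79 and MCM4 at 0.80 next to the bottom.

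Single genes showed how uneven the day 12 difference was. TOP2A, with the most UMIs of the mitosis genes, had 315 CPM in plucked and 454 CPM in in-skin epithelium. ASPM, a spindle pole protein, had 183 and 179 CPM, and TPX2, a spindle assembly factor, had 165 and 243 CPM. Among S-phase genes PCNA had 215 and 441 CPM, RRM2 had 135 and 289 CPM, and UHRF1 had 99.0 and 165 CPM. ASPM was thus near level between the libraries while PCNA and RRM2 were about a factor of 2 apart.

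Of the 31 members, 30 reached 20 CPM in one of the day 12 epithelial groups, and 5 of these were lower by 2-fold or more in plucked feathers, where 2.04% of all genes tested were. None was higher by 2-fold, against 12.9% of all genes. The lowest were UBE2C, the ubiquitin-conjugating enzyme of the anaphase-promoting complex, at a log2 ratio of -1.41 (-1.49 to -1.33), MCM5 at -1.22 and the CCNB2 entry, a mitotic cyclin, at -1.08. RRM2 followed at -1.04 and PCNA at -1.0. All 30 lay below the median gene, which stood at 0.21, and the members' median was -0.60. That median was -0.21 without the 5% of barcodes that had the most UMIs, with 19 of 30 members below 0, and -1.18 at a mitochondrial limit of 5%.

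The 4 highest members lay above 0. KIF11, the kinesin that pushes spindle poles apart, had 101 CPM in plucked and 86.2 CPM in in-skin epithelium, a log2 ratio of 0.21 (0.11 to 0.31). KIF2C, a microtubule-depolymerising kinesin, stood at 0.07 (-0.06 to 0.20), ASPM at 0.03 (-0.05 to 0.10) and MCM4 at 0.02 (-0.12 to 0.16). CCNA2, cyclin A, had the fewest UMIs of the mitosis genes, 18.1 and 12.8 CPM, and did not reach the level minimum. The intervals of 24 of the 30 members lay wholly below 0, and 1, that of KIF11, wholly above it. The share of all genes with intervals off 0 is not given here, so these counts have no background to be set against.

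Fibroblasts shared the order of the ends but not the level. KIF2C at 31.9 CPM in plucked and 10.5 CPM in in-skin fibroblasts had a log2 ratio of 1.03 (0.71 to 1.34), and KIF11 at 54.8 and 22.4 CPM had 1.00 (0.72 to 1.27). ASPM followed at 0.90. UBE2C at 65.3 and 87.1 CPM had -0.37 (-0.60 to -0.14), MCM5 had -0.25 and CDK1, the kinase that starts mitosis, had -0.22. These comparisons use the same libraries as the epithelial ones, so the shared ends are not a second measurement. Of 26 members over the minimum, 2 were higher by 2-fold, where 17.4% of all genes were, and none was lower, where 2.5% were. The members' median of 0.36 lay close to the median gene at 0.38.

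**Figure D2:**
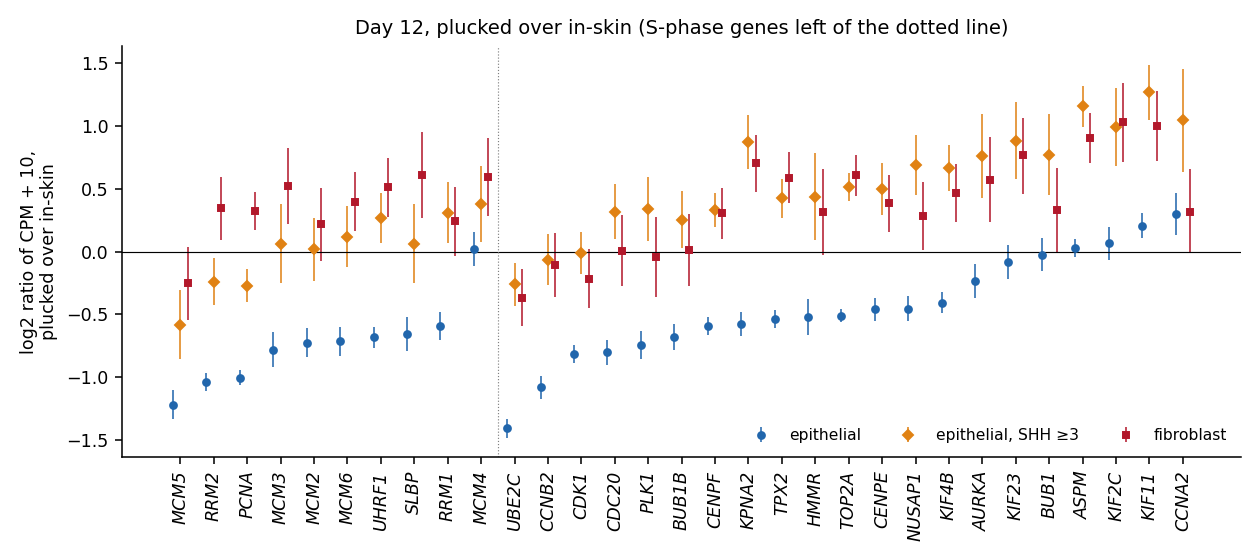
Log2 ratio of CPM (pseudocount of 10 CPM), plucked over in-skin at day 12, for each of the 31 genes in epithelial (circles), SHH-positive epithelial (diamonds) and fibroblast barcodes (squares). Intervals join the outer ends of both groups' 95% counting intervals. UBE2C and MCM5 lie at the low end and KIF11 at the high end of the epithelial and fibroblast series.

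Epithelial cells that expressed SHH were the richest in mitosis transcripts of the gates compared in plucked feathers. The 364 plucked epithelial barcodes with at least 3 SHH UMIs held 4703 CPM of mitosis genes and 1434 CPM of S-phase genes, compared with 1603 and 619.6 CPM in the 3096 with no SHH UMI. At equal depth 62.1% and 35.3% of them had a mitosis UMI, a difference of 26.8 points (19.8 to 33.5). For 3 or more mitosis UMIs the shares were 34.9% and 14.3%, and for 6 or more they were 22.5% and 9.42%. The median depths were 10125 and 10337 UMIs, and without thinning the difference at 1 or more was 7.01 points.

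The contrast was narrower in the in-skin library. The 295 barcodes with SHH held 3301 CPM of mitosis genes and the 1231 without held 2711 CPM. At least 1 mitosis UMI was present in 61.7% and 44.8%, a difference of 16.9 points (8.23 to 25.3). At 3 or more the difference was 6.0 points (-1.86 to 14.1), and at 6 or more the shares were 17.3% and 17.4%. The in-skin difference thus sat among barcodes with 1 to 5 mitosis UMIs.

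Set side by side, the SHH-positive epithelium of the day 12 libraries differed by less than counting error in the mitosis share, and the SHH-negative epithelium by more. Plucked minus in-skin, the mitosis share differed by 0.39 points in SHH-positive barcodes (-10.4 to 11.2) and by -9.50 points in SHH-negative ones (-14.0 to -4.96). For the S-phase share these differences were -7.51 points (-18.4 to 3.52) and -17.3 points (-21.7 to -12.8). The wide interval in SHH-positive barcodes does not show that they are alike.

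Gene by gene, the contrast was broad in plucked feathers. Of 31 members, 27 were higher by 2-fold or more in SHH-positive epithelium, where 6.46% of all genes tested were. None was lower by 2-fold, where 4.98% of all genes were. CENPF, a kinetochore protein of late G2 and mitosis, led with 486 against 114 CPM, a log2 ratio of 2.00 (1.89 to 2.10). KPNA2, a nuclear import receptor, followed at 1.69, MCM6 led the S-phase genes at 1.54, and CDC20, the activator of the anaphase-promoting complex, stood at 1.53. The lowest were RRM2 at 0.60 (0.46 to 0.73), with 193 against 124 CPM, CCNA2 at 0.89, BUB1, a spindle checkpoint kinase, at 0.91 and MCM4 at 0.98. Every member lay above 0. For MCM3 and CCNA2, at 19.5 and 15.7 CPM without SHH, that sign was fixed by the limit of 20 CPM. The share of all genes above 0 is not given here.

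Among in-skin barcodes none of 30 members passed 2-fold, where 3% of all genes did, or was lower by as much, where 3.51% were. CENPF again led, with 384 against 187 CPM and a log2 ratio just under 2-fold (1.00, 0.88 to 1.12). MCM4 at 0.69 and MCM6 at 0.66 came next. RRM2 was again lowest, with 229.9 against 298 CPM and a log2 ratio of -0.36 (-0.49 to -0.23), and NUSAP1, a spindle microtubule bundler, stood at -0.15 (-0.35 to 0.05) and AURKA, a spindle pole kinase, at -0.09. For all 31 members the ratio in plucked feathers was above the ratio in the in-skin library. The share of all genes with this order is not given here, so the order is not shown to be particular to the members. More of all genes were higher by 2-fold in the plucked contrast, 6.46% against 3%. The difference in the members' ratios between libraries has no replicate and was not tested.

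**Figure D3:**
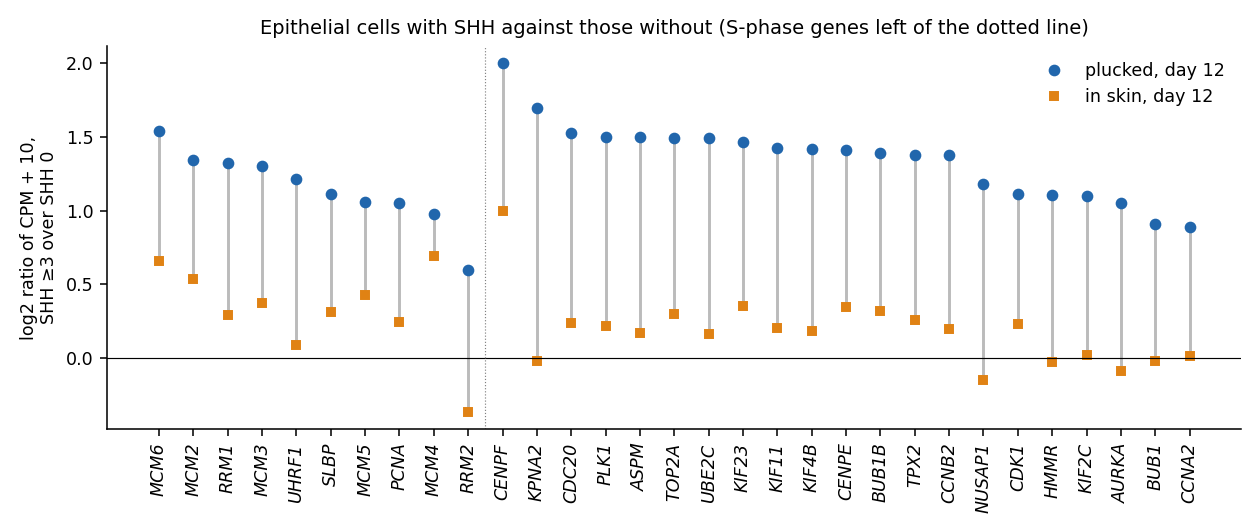
Log2 ratio of CPM (pseudocount of 10 CPM) in epithelial barcodes with at least 3 SHH UMIs over those with 0, for each gene, in plucked (circles) and in-skin (squares) libraries at day 12; lines join the values of 1 gene. CENPF is highest in both series, at 2.00 and 1.00, RRM2 is lowest in both, at 0.60 and -0.36, and every circle lies above its square.

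Within SHH-positive epithelium, plucked over in-skin, KIF11 at 242 against 94.6 CPM had a log2 ratio of 1.27 (1.05 to 1.49), ASPM at 441 against 192 CPM had 1.16 and CCNA2 at 37.8 against 13.1 CPM had 1.05. These 3 of 31 were the members higher by 2-fold, where 11.1% of all genes were, and none was lower by 2-fold, where 0.763% were. MCM5 at -0.58 (-0.86 to -0.31), PCNA at -0.27 and UBE2C at -0.26 were lowest. The mitosis genes together stood 1.42-fold and the S-phase genes 0.96-fold, against a median gene at 0.27 on the log2 scale.

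Barcodes were also split by the number of SHH UMIs. After thinning, 36.8% of plucked epithelial barcodes with no SHH UMI had a mitosis UMI, 55.0% of those with 1, 59.7% of those with 2 and 60.5% of those with 3 or more. The in-skin shares were 48.2%, 59.6%, 61.2% and 60.5%. The positive classes held between 38 and 151 barcodes and their intervals overlapped, so whether the share rises further with SHH was not detectable at this depth. The in-skin intervals for 0 and 1 SHH UMI also overlapped, at 45.6 to 50.8 and 49.0 to 69.6.

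Epithelial cells with the feather keratin transcript F-KER lay at the opposite end. In plucked feathers at day 12 the 226 epithelial barcodes with at least 2 F-KER UMIs held 350.3 CPM of mitosis genes and 215 CPM of S-phase genes, compared with 2179 and 801 CPM in the 3381 with none. Of them 3.1% had 3 or more mitosis UMIs at equal depth, compared with 18.2%, a difference of -15.1 points (-18.3 to -10.7). At 1 or more the shares were 23.5% and 39.8%, a difference of -16.4 points (-23.4 to -8.66). They were also deeper, with a median of 14914 UMIs against 10054, and without thinning 94.7% of them and 88.3% of the others had a mitosis UMI. Split by F-KER UMIs after thinning, the mitosis shares for 0, 1, 2 and 3 or more were 38.7%, 23.8%, 17.6% and 54.5%. The last class went the other way, but it was 6 of 11 barcodes (23.4 to 83.3).

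Nearly all members shared in the deficit. Of 30 over the minimum, 26 were lower by 2-fold or more in F-KER barcodes, where 7.1% of all genes tested were. None was higher, where 4.15% of all genes were. ASPM was lowest, with 16.1 against 206 CPM and a log2 ratio of -3.05 (-3.31 to -2.79), then CENPF with 13.1 against 173 CPM at -2.98 and TOP2A with 40.0 against 354 CPM at -2.86. UHRF1 led the S-phase genes at -2.04 (-2.31 to -1.78). The least affected were KIF2C, with 36.7 against 47.6 CPM and -0.30 (-0.55 to -0.05), CDK1, with 88.5 against 145 CPM and -0.66 (-0.84 to -0.48), and MCM5 at -0.73. CDK1 was the mitosis gene with the most UMIs in F-KER barcodes, where TOP2A held that place in the rest.

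Only 12 in-skin epithelial barcodes passed the F-KER limit and none of them had 3 or more mitosis UMIs, which gives no comparison. Of the 632 plucked epithelial barcodes with 3 or more mitosis UMIs, 92 held an SHH UMI after thinning and 4 an F-KER UMI, compared with 125 and 67 of the 2316 with no mitosis UMI.

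**Figure D4:**
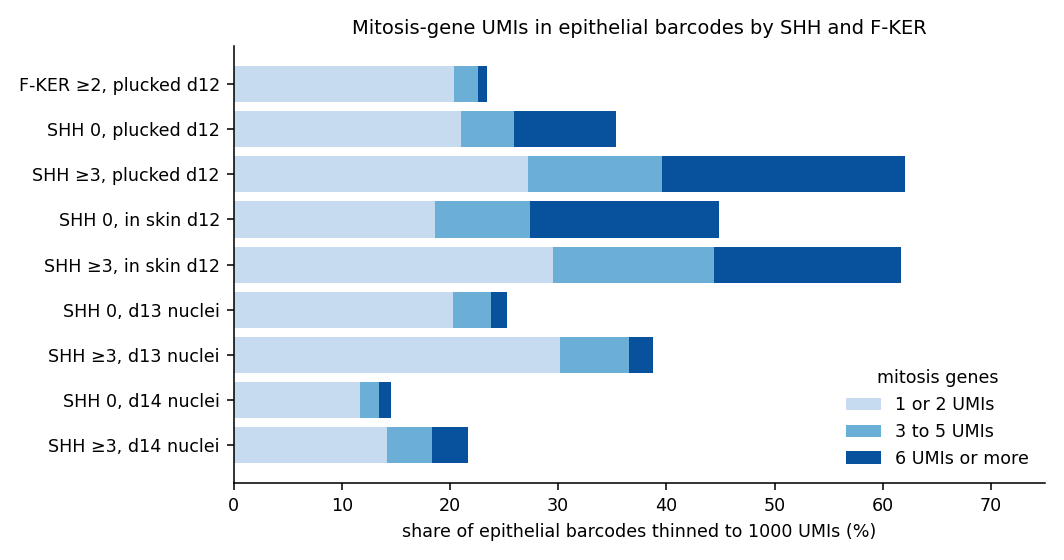
Shares of epithelial barcodes thinned to 1000 UMIs that held 1 or 2, 3 to 5, and 6 or more mitosis UMIs, by SHH or F-KER class and library. Plucked SHH-positive cells reach 22.5% in the highest class, plucked F-KER cells 0.885%, and the SHH classes of the in-skin library have equal dark segments, at 17.3% and 17.4%.

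In the nuclei the levels were lower than in day 12 cells, and lower at day 14 than at day 13. Epithelial nuclei held 665 CPM of mitosis genes at day 13 and 358 CPM at day 14, and 134 and 75.3 CPM of S-phase genes. The share with 3 or more mitosis UMIs was 5.68% and 3.06%, a difference of -2.62 points for day 14 minus day 13 (-4.20 to -1.03). At 1 or more it was 27.2% and 14.8%, a difference of -12.4 points (-15.5 to -9.26). The S-phase share was 11.2% and 6.71%, a difference of -4.49 points (-6.69 to -2.28).

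Globin-majority barcodes were set beside these shares, and they can hold division transcripts of their own. Their median depths were 1146 and 1131 UMIs, including barcodes too shallow to thin. Their share with 1 or more mitosis UMIs was 25.6% at day 13 and 8.92% at day 14, close to the epithelial share at day 13. The share also fell in barcodes of neither gate, from 28.7% to 11.2%, and in all kept barcodes, from 28.1% to 12.1%. The lower share at day 14 was thus not particular to epithelium. Of globin-majority barcodes, 1.01% and 0.163% had 3 or more, below the epithelial 5.68% and 3.06%. Their S-phase share of 14.1% and 12.6% was above that of epithelial nuclei. Without PCNA, a split that was not planned beforehand, it was 6.44% and 2.66%, below the epithelial 8.86% and 5.52%. Epithelial nuclei at day 13 and day 14 had median depths of 2858 and 3162 UMIs.

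Of the members, 13 reached 20 CPM in epithelial nuclei, and 1 was lower by 2-fold at day 14, where 2.48% of all genes were. None was higher, where 2.35% of all genes were. The lower gene was CENPF, with 134 CPM at day 13 and 59.5 CPM at day 14, a log2 ratio of -1.06 (-1.22 to -0.89). TOP2A had 72.2 and 31.4 CPM, at -0.99, and CENPE, the kinetochore motor, 53.2 and 23.8 CPM, at -0.91. KIF11 had 33.5 and 32.5 CPM, at -0.03 (-0.26 to 0.19), ASPM had 92.2 and 62.6 CPM, at -0.49, and KIF23, a kinesin of the midbody, had 24.8 and 16.3 CPM, at -0.40. HMMR, a spindle-associated protein, had 20.6 and 12.7 CPM, at -0.44. All 13 lay below 0 and 12 lay below the median gene, which stood at -0.19. Some of them, KIF23 and HMMR included, reached 20 CPM only at day 13, so their sign was fixed by that limit. The share of all genes below 0 is not given here, so the count has no background to be set against.

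Between gates in the nuclei, epithelial over fibroblast, no member was higher by 2-fold, where 7.98% of all genes were at day 13 and 11.2% at day 14. At day 13 none of 15 members was lower by 2-fold, where 12.2% of all genes were. At day 14, 2 of 9 were, where 16.9% of all genes were. These were NUSAP1, with 11.9 against 39.2 CPM, at -1.17 (-1.64 to -0.69), and CENPE, with 23.8 against 60.0 CPM, at -1.05.

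Fibroblast nuclei gave 589.6 and 498 CPM of mitosis genes from 452 and 367 barcodes. The shares with 3 or more mitosis UMIs were 4.44% and 3.75%, a difference of -0.69 points (-5.00 to 3.71). At 1 or more they were 24.0% and 12.1%, a difference of -11.9 points (-19.8 to -3.82), and for S-phase genes 13.3% and 9.22%, a difference of -4.09 points (-10.7 to 2.69). None of 14 members passed 2-fold, where 2.99% of all genes were lower and 1.9% higher. CCNB2 had 29.7 CPM at day 13 and 13.3 CPM at day 14, a log2 ratio of -0.77 (-1.55 to 0.06), and NUSAP1 had 27.9 and 39.2 CPM, a ratio of 0.38 (-0.35 to 1.10). HMMR at -0.59 and CENPF at -0.46 stood near the low end, TPX2 at 0.32 and CENPE at 0.24 near the high end, and no interval excluded 0. The members' median of -0.23 turned to 0.012 when CPM was taken over all UMIs, globin included.

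SHH-positive epithelial nuclei also held more mitosis transcripts in summed level. The mitosis genes summed to 1.55-fold at day 13 and 2.22-fold at day 14 for SHH-positive over SHH-negative, compared with 2.93-fold in plucked and 1.22-fold in in-skin day 12 epithelium. At day 13, 38.7% of 328 SHH-positive and 25.2% of SHH-negative epithelial nuclei had a mitosis UMI at equal depth, a difference of 13.5 points (6.07 to 21.0), which was 27.2 points without thinning at median depths of 5402 and 2616 UMIs. At day 14 the shares were 21.7% and 14.6%, a difference of 7.09 points (-1.42 to 17.0). At 3 or more mitosis UMIs the difference was 3.60 points at day 13 (-0.31 to 8.14). At day 14 it was 4.65 points (-0.14 to 11.6), and both intervals held 0. Split by SHH UMIs after thinning, the day 13 mitosis shares for 0, 1, 2 and 3 or more were 26.5%, 30.3%, 25.3% and 39.3%. The day 14 shares were 14.7%, 16.4%, 9.09% and 21.7%. Classes with 2 or more SHH UMIs held between 23 and 75 barcodes. CENPF had 216 against 94.96 CPM at day 13, a log2 ratio of 1.11 (0.88 to 1.33), and 186 against 49.1 CPM at day 14, a ratio of 1.73 (1.37 to 2.08). It was the highest member in all 4 libraries. At day 13 it was the only one of 16 members to pass 2-fold, where 1.52% of all genes did. At day 14 it was joined by ASPM at 1.29 and TOP2A at 1.07, which made 3 of 13 members, where 3.55% of all genes did. No member was lower by 2-fold in these nuclei, where 1.41% of all genes were at day 13 and 2.51% at day 14. KIF11 went the other way at day 14, with 18.7 against 35.9 CPM and a ratio of -0.67. PCNA stood at -0.12 and KIF11 at -0.06 at day 13, the lowest of the 16, and UHRF1 at 0.60 and TPX2 at 0.58 were next to CENPF.

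Nuclei past the F-KER limit showed no deficit like that of day 12, but in nuclei F-KER UMIs were not confined to epithelium. Epithelial nuclei with at least 2 F-KER UMIs held 713 CPM of mitosis genes at day 13 and 362 CPM at day 14, and those with none held 640.4 and 332 CPM. At day 13 and equal depth, 31.7% of the former (28.0 to 35.7) and 25.5% of the latter (23.3 to 27.9) had a mitosis UMI. At day 14 both shares were 15.4%. For 3 or more mitosis UMIs the shares were 5.69% and 5.43% at day 13, and 3.02% and 3.12% at day 14. F-KER UMIs were far more widespread in the nuclei, with 8584 of 19435 kept barcodes past the limit at day 14, compared with 261 of 6208 in plucked cells at day 12. At day 14, 139 of 305 fibroblast nuclei with no mitosis UMI also held an F-KER UMI after thinning. A UMI of F-KER in a nucleus therefore does not mark it as hardening, and these values do not show whether hardening cells divide. The part of free RNA was not tested.

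Which members gave the most UMIs also differed with the preparation. In epithelial cells PCNA and TOP2A led their groups in both day 12 libraries. In epithelial nuclei UHRF1 led the S-phase genes, with 42.9 CPM at day 13 and 25.3 CPM at day 14, and PCNA had 23.4 and 13.6 CPM. Among mitosis genes CENPF led at day 13 and ASPM at day 14. CDK1, with 138 and 250 CPM in the day 12 epithelium, had 11.3 and 4.68 CPM in nuclei. Age, preparation and software version changed together here.

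Mitosis genes tended to be detected in the same barcodes. For each mitosis gene, epithelial barcodes were split by the other 20 mitosis genes. Where those others gave 3 or more UMIs at equal depth, the gene itself was detected in a median of 25.5% of plucked day 12 barcodes, and where they gave 0, in a median of 1.11%. The in-skin medians were 23.9% and 0.832%. TOP2A was detected most often, in 69.8% against 3.86% of plucked and 62.7% against 5.44% of in-skin barcodes, and CCNA2 least, in 6.24% against 0.558% and 2.75% against 0.477%. UBE2C was detected in 33.4% of such plucked and 45.7% of such in-skin barcodes, ASPM in 48.2% and 31.1%. All 21 genes were detected more often beside the others in each of the 4 libraries. No gene outside the mitosis group was put through this split, so the count has no background to be set against.

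Replication transcripts accompanied mitosis transcripts in most of these cells. Of 632 plucked epithelial barcodes with 3 or more mitosis UMIs, 78.2% also had an S-phase UMI, compared with 19.0% of the 2316 with no mitosis UMI. In-skin barcodes gave 77.6% of 473 and 31.9% of 834. All 10 S-phase genes were higher by 2-fold or more in the mitosis-rich plucked barcodes, where 8.69% of all genes tested were, and 4 of 10 in the in-skin ones, where 4.60% were. RRM2 led in both, with 535 against 28.1 CPM in plucked feathers, a log2 ratio of 3.84, and 494 against 104 CPM in the in-skin library, a ratio of 2.15. MCM2 was at 109 against 22.9 CPM in plucked feathers, and at 67.2 against 69.7 CPM in the in-skin library, a ratio of -0.05.

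In the reverse split most S-phase-rich barcodes also had a mitosis UMI, and a minority had none. Having none after thinning does not show that a cell lacked these transcripts. Of 373 plucked epithelial barcodes with 3 or more S-phase UMIs, 15.5% had no mitosis UMI and 61.7% had 3 or more. Of 310 in-skin ones, 21.3% had none and 44.8% had 3 or more. Among S-phase-rich fibroblasts, 36.4% of 44 plucked and 46.6% of 73 in-skin barcodes had no mitosis UMI.

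Other division genes, from lists drawn up with earlier results of these data known, followed the members. Of 44 other mitosis genes over the minimum in plucked epithelium, 43 were higher by 2-fold in mitosis-rich barcodes, and 39 of 41 were in the in-skin library. Other replication genes were higher in 28 of 34 and 17 of 31. Of all genes, 8.69% and 4.60% were. Outside the members, the 15 genes of at least 20 CPM with the highest ratio in plucked feathers included SMC2, a condensin subunit, at 812 against 17.7 CPM (4.89), CKAP2 at 4.62, KIF15 at 4.31, DLGAP5 at 4.29, INCENP, the scaffold of the chromosomal passenger complex, at 4.23, and ANLN, an actin organiser of the cleavage furrow, at 3.92. All 15 were also higher by 2-fold in the in-skin library, and 14 of them in each nuclear library, where 3.99% of all genes were at day 13 and 12.4% at day 14. H2AFJ, a histone gene, was the exception in nuclei, at 0.49 and 0.31. Of the 15, 10 were in the list of other mitosis genes, and 2 had no symbol in the files.

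Genes of G1 and of cell-cycle restraint split. CDKN1B, an inhibitor of cyclin-dependent kinases, had 213 CPM in mitosis-rich and 549 CPM in mitosis-negative plucked epithelium, a log2 ratio of -1.33, and 154 against 366 CPM in the in-skin library, a ratio of -1.20. PLK2 stood at -1.16 and -1.35, and BTG1, an antiproliferative gene, at -0.96 and -0.67. RBL1, a pocket protein of the RB family, went the other way, at 2.25 in plucked and 0.65 in in-skin epithelium. CDK6 stood at 1.77 and 0.66, and CCND1, cyclin D1, at 1.31 and 0.46. Of 16 such genes over the minimum in plucked feathers 4 were higher and 2 lower by 2-fold, where 8.69% and 7.43% of all genes were. Of 14 in the in-skin library 0 were higher and 2 lower, where 4.60% and 4.17% were.

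A list of epithelial state genes, which holds keratins, adhesion, barrier and signalling genes, split as well. Of 20 such genes over the minimum 9 were lower by 2-fold in mitosis-rich plucked epithelium, where 7.43% of all genes were, and 8 of 17 in the in-skin library, where 4.17% were. Higher by 2-fold were 3 and 0. ABCA12, a lipid transporter of cornifying cells, had 73.3 against 616 CPM in plucked and 6.16 against 101 CPM in in-skin epithelium, log2 ratios of -2.91 and -2.78. EDQM3, a gene of the epidermal differentiation complex, stood at -2.70 and -2.81, and SPINK5, a protease inhibitor of the outer epidermis, at -2.34 and -2.02. DSP, a desmosome plaque protein, stood at -1.46 and -1.05, and EPCAM at -1.48 and -1.45.

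The keratins of that list differed among themselves. The entry that the files call KRT13, matched to KRT15 through a RefSeq synonym, had 339.9 against 113 CPM in plucked feathers (1.51) and 599 against 519 CPM in the in-skin library (0.20), and KRT14 stood at 0.69 and -0.07. The entry called KRT24, matched to KRT19 in the same way, had opposite signs, at 0.86 in plucked and -1.38 in in-skin epithelium, and the difference was not tested. KRT17 was lower in both, at -1.11 and -1.63. SHH had 272 against 73.1 CPM in plucked feathers (1.76) and 271 against 170 CPM in the in-skin library (0.64).

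**Figure D5:**
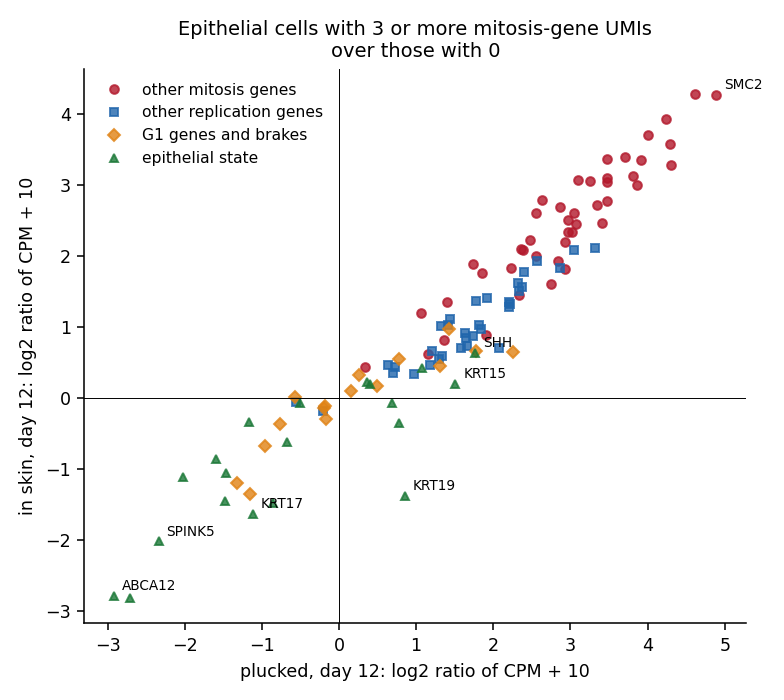
Log2 ratio of CPM (pseudocount of 10 CPM) in epithelial barcodes with 3 or more mitosis UMIs over those with 0 at day 12. Plucked is on the horizontal and in-skin on the vertical axis, and each point is 1 gene from the lists outside the members. Other mitosis genes lie at the upper right up to SMC2, ABCA12 lies at the lower left, and the point named KRT19, which the files call KRT24, is positive in plucked and negative in in-skin epithelium; KRT15 names the files' KRT13.

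Marker sums followed the gates, within limits. The marker lists hold the gate genes GATA3, KRT5, COL1A1 and COL1A2, so part of this contrast was fixed by the gates themselves. In plucked feathers at day 12 the 9 epithelial markers summed to 8029 CPM in epithelial and 519.7 CPM in fibroblast barcodes, and the 10 fibroblast markers to 129.6 and 15041 CPM. The 7 melanocyte markers summed to 189 CPM in plucked and 75.9 CPM in in-skin day 12 epithelium, and to 908 and 666 CPM in epithelial nuclei at days 13 and 14. The highest single marker gave most of each sum, at 163, 66.2, 764 and 607 CPM in the same order. The 7 mural markers summed to 916 CPM in plucked and 1777 CPM in in-skin fibroblasts at day 12. At day 13 the fibroblast gate also carried epithelial markers, which summed to 1587 CPM. The part of these other cells in the levels above was not tested, and in summed levels fewer dividing cells and less RNA per dividing cell cannot be told apart.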

How the data were processed

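Single-cell (12 days) and single-nucleus (13 and 14 days) droplet sequencing of chicken feathers was analysed in 4 libraries, 1 per group. The authors deposited raw UMI counts. The matrices of the 12-day cells came from Cell Ranger 3.1.0 and those of the nuclei from 7.0.0, per the file headers, while the submitters' processing notes name Cell Ranger 7.0.0 and the build GRCg6a for every sample. Whether intronic reads were counted is not given in the sources used here, and intron counting would weigh on nuclei more than on cells.

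Kept barcodes had 500 or more UMIs, 300 or more genes and no more than 10% of UMIs from 13 mitochondrial genes. CPM, counts per 1000000, were taken over UMIs outside 7 globin and 13 mitochondrial genes. For shares, each barcode was thinned to 1000 such UMIs by a seeded draw without replacement, and shallower barcodes were left out. Log2 ratios used a pseudocount of 10 CPM, which understates low genes, and a 2-fold difference was called among genes of at least 20 CPM in either group. Shares have exact Clopper-Pearson intervals and sums exact Poisson intervals at 95%; a difference combines the outer ends of both, and all of them cover counting error only. No doublet caller was run. Each gate leaves out barcodes above its limit for the transcripts of the other cell type, but admits barcodes at or below that limit. Barcodes with both epithelial and collagen transcripts can therefore remain in the gates. Both steps were tested on simulated data (Python 3.11.15, numpy 2.4.6, scipy 1.17.1, pandas 2.3.3, matplotlib 3.10.9).

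The members and the other gene lists were chosen with earlier results of these data known. All matched members enter the counts. Those described singly are the 3 with most UMIs of each role in day 12 epithelium and the 3 highest and 3 lowest ratios of each comparison; other genes named were taken from the lists or are the 15 genes outside the members with the highest ratio in mitosis-rich plucked epithelium. A few other members named beside these were chosen after their values were seen. Planned searches of promoters and proteins were not run, and no sequence is shown.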

Additional observations from a re-analysis of the deposited data

Results flagged for a closer look

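The day 12 differences had opposite signs in epithelium and fibroblasts at 1 or more UMIs and equal depth. Plucked minus in-skin, the mitosis share differed by -11.1 points in epithelial and 17.5 points in fibroblast barcodes, and the S-phase share by -18.7 and 6.35 points. Without thinning the epithelial mitosis difference was 4.23 points, and at 3 or more mitosis UMIs the fibroblast difference was 1.18 points (-1.61 to 4.17). Of 26 members over the minimum in both gates, 12 were lower in plucked epithelium and higher in plucked fibroblasts with both counting intervals off 0, where 5.45% of the 5136 genes over it in both were. The median gene of the fibroblasts stood at 0.38, and 4 of these 12 lay below it there. The largest such gap in the S-phase genes was that of RRM2, at -1.04 in epithelium and 0.34 in fibroblasts, and KPNA2 stood at -0.58 and 0.70. Both gates come from the same pair of libraries, and the difference between them was not tested.

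A few genes had opposite signs in the day 12 libraries under the same split of the epithelium. RRM2 was at 0.60 in plucked and -0.36 in in-skin barcodes for SHH-positive over SHH-negative. For mitosis-rich over mitosis-negative barcodes the log2 ratios were 0.86 and -1.38 for the entry the files call KRT24, matched to KRT19 through a RefSeq synonym, 0.78 and -0.34 for PTHLH and 0.69 and -0.073 for KRT14. PTHLH encodes a parathyroid hormone-like signalling peptide. With 1 library in each group these differences were not tested.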

How the results depend on the processing

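No paired analysis was possible because each group is 1 library and no sample has a replicate number to share. Of 219 alternative values, 187 stayed within counting error of the reported one, 28 moved beyond it with the same sign and 4 were counted as changing sign. Among the 187, the fibroblast S-phase difference of day 14 minus day 13, whose interval holds 0, turned from -4.09 to 1.89 points when all UMIs were thinned, globin and mitochondrial included. The cause was not tested beyond what each setting does by construction. Leaving out the synonym-matched entry and leaving out globin-majority barcodes were chosen after seeing the data and moved no share beyond counting error.

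Unthinned shares compare barcodes of unlike depth. The day 12 epithelial mitosis difference turned to 4.23 points, at median depths of 10296 UMIs in plucked and 12071 in in-skin barcodes. Here the deeper in-skin barcodes had the lower unthinned share, 84.5% against 88.7%, and the reason for the turn was not tested. The F-KER difference turned to 6.34 points, at medians of 14914 UMIs with F-KER and 10054 without. The other unthinned values were -4.18 points for epithelial S-phase genes at day 12, 7.01 and 27.2 for SHH in plucked feathers at days 12 and 13, and, for day 14 minus day 13, -19.5 and -11.5 for epithelial mitosis and S-phase genes and -20.1 for fibroblast mitosis genes. Thinned to 500 UMIs, the values were -7.98 points (epithelial mitosis, day 14 minus day 13), -14.6 (epithelial S-phase, day 12), -1.66 (epithelial S-phase, day 14 minus day 13) and 7.42 (fibroblast mitosis, day 12). Thinned to 2000 UMIs, the epithelial differences of day 14 minus day 13 were -18.3 and -7.41. At least 2 UMIs instead of 1 gave -5.61 and -0.62 for these, 5.78 for fibroblast mitosis genes at day 12 and -2.38 for them in nuclei. At most 5% mitochondrial UMIs gave -18.6 and -23.7 points for the day 12 epithelial mitosis and S-phase genes and 18.6 for SHH in plucked feathers.

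Median log2 ratios of members over the minimum moved in day 12 epithelium to -0.67 with a pseudocount of 1, -0.81 relative to the median gene, -1.18 at 5% mitochondrial UMIs and -0.21 without the 5% deepest barcodes. In day 12 fibroblasts they moved to 0.42 with a pseudocount of 1 and 0.54 at 5% mitochondrial UMIs, and to -0.011 relative to the median gene. In epithelial nuclei they were -0.79 with a pseudocount of 1, -0.39 relative to the median gene and -0.49 with no minimum, and in fibroblast nuclei 0.012 with CPM over all UMIs. With 1 library per group, variation between embryos or preparations is not measured, and few S-phase genes reached the level minimum in nuclei.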

Other observations

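PCNA behaved unlike the other S-phase genes in globin-majority nuclei. At equal depth it was detected in 8.04% of 4378 such barcodes at day 13 (7.25 to 8.89) and in 10.3% of 3678 at day 14 (9.37 to 11.4), compared with 2.64% and 1.42% of epithelial nuclei. The other 9 S-phase genes together were detected in 6.44% and 2.66% of globin-majority barcodes and in 8.86% and 5.52% of epithelial nuclei. In CPM, PCNA stood at 82.9 and 106 in globin-majority barcodes, and took 54.5% of their S-phase UMIs at day 13. Without PCNA the S-phase share of epithelial nuclei therefore lay above that of globin-majority barcodes, where with PCNA it lay below. This split was not planned beforehand.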
